A study of Homo sapiens with 12 samples.

Results

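Single cell number 4 of an HCT116 total RNA series was set against single cells 1 to 3. HCT116 is a human colon carcinoma cell line. The cell is represented by 2 of 12 libraries, one called DASHed and one called untreated, and the cells set against it by 6 libraries, 3 of each treatment. Number 4 was chosen by measured values of these data, since its libraries had the highest share of ribosomal protein mRNA and of mitochondrial tRNA in both treatments. Those shares are therefore given as a description, and no difference between number 4 and the other cells carries a test.

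DASHed libraries had passed through scDASH, in which Cas9 is guided to cut amplified cDNA of ribosomal RNA (rRNA), and untreated libraries had not. The study asked how well this removes rRNA from single cells. All libraries were made from total RNA with MATQ-seq, an amplification protocol that also captures RNA without a poly(A) tail, and single cells had been sorted by FACS. The other 4 libraries are mini-bulk, 2 DASHed and 2 untreated, and serve here only as a pooled level. No culture, passage or sorting day is named.

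The labels do not say what a cell's number marks. Deviations from the mean of the 4 cells correlated at 0.919 to 0.930 between the DASHed and the untreated library of the same number across 9530 genes, which are not independent replicates. Whether both libraries of a number came from 1 cell was not tested, and the 2 libraries of number 4 may therefore hold 1 cell measured again after depletion. The library of number 4 held 1573651 counts when DASHed, where the others held 1018874 to 1537549, and 5667367 when untreated, where the others held 5545355 to 6008358. Nuclear and mitochondrial rRNA with rRNA-like sequences took 35.6% of the counts of number 4 in the DASHed set (29.9 to 38.4% in the others) and 78.3% in the untreated set (72.9 to 81.3%). After thinning to equal totals, 11886 genes had a count in number 4 in the DASHed set (9897 to 12182 in the others) and 15917 in the untreated set (13981 to 15969). Number 4 thus had the largest total of the DASHed cells and stood inside the range of the other cells in the remaining measures.

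The cytosolic ribosome consists of a large and a small subunit, each an rRNA core dressed with ribosomal proteins whose mRNAs are among the most abundant of a growing cell. Most of these mRNAs begin with a cytidine followed by a run of pyrimidines, the 5′ terminal oligopyrimidine (TOP) motif, through which the growth kinase mTORC1 and LARP1 control their translation and stability. Mitochondrial tRNAs are encoded in mitochondrial DNA, cut out of long transcripts of both strands, and finished by nuclear-encoded enzymes before they serve the mitochondrial ribosome.

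The 4 mitochondrial tRNAs with enough counts to compare one by one were MT-TA, MT-TN, MT-TC and MT-TY, which carry alanine, asparagine, cysteine and tyrosine. They are shown because they lie side by side in 1 cluster and hold most of the mitochondrial tRNA excess of number 4. They hold most of the mitochondrial tRNA counts of number 4 as well. The cluster lies between the genes MT-ND2 and MT-CO1, and all 4 are read from the minus strand of the GRCh38 mitochondrial sequence, at chrM:5587-5655, chrM:5657-5729, chrM:5761-5826 and chrM:5826-5891. Capitals mark the anticodon in the gene sequence, written 5′ to 3′ without the CCA end that is added later.
MT-TA: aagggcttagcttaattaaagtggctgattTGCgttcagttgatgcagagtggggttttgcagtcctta
MT-TN: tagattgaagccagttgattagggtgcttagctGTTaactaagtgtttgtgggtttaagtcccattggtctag
MT-TC: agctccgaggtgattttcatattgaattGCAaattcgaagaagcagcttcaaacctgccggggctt
MT-TY: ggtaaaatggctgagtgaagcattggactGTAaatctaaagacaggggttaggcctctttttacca

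The start regions of 6 ribosomal protein genes are shown because they carry a pyrimidine run from the start and lie toward both ends of the differences. RPS29 and RPS28, also toward the ends, have no such run at the start and are not printed. RPS9, RPL38, RPS21 and FAU stood among the 5 largest differences, and RPL21 and RPL12 among the 5 smallest. Each window of 30 bases holds 10 bases before and 20 bases from the RefSeq start (GRCh38.p14). Capitals mark the pyrimidine run that begins at the start. The windows lie at chr19:54200848-54200877 (plus strand), chr17:74203668-74203697 (plus), chr20:62387093-62387122 (plus), chr11:65122115-65122144 (minus), chr13:27251548-27251577 (plus) and chr9:127451387-127451416 (minus), in the order printed.
RPS9: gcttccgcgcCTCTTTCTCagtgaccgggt
RPL38: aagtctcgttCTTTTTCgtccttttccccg
RPS21: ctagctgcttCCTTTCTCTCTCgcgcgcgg
FAU: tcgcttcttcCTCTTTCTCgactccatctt
RPL21: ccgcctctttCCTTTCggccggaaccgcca
RPL12: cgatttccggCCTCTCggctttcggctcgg

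Ribosomal protein mRNA took 2.81% of all counts in DASHed cell 4, against 1.85%, 1.75% and 1.87% in DASHed cells 1, 2 and 3. In the untreated set the share was 0.724% in cell 4, against 0.452%, 0.562% and 0.449%. The share of number 4 was 1.54 and 1.49 times the mean of the other cells, 1.82% ± 0.06 (SD, n = 3) and 0.488% ± 0.065 (SD, n = 3). Mini-bulk libraries stood below every single cell of their treatment, at 1.15% and 1.03% when DASHed and 0.203% and 0.210% when untreated, so number 4 was the cell farthest from the pooled level. Both subunits shared in the excess: large-subunit genes stood at 1.5 and 1.47 times the other cells, small-subunit genes at 1.62 and 1.51, and the 3 genes of the stalk, RPLP0, RPLP1 and RPLP2, together at 1.44 and 1.41. Summing each gene with its processed pseudogenes, to which reads can be assigned in error, gave 1.54 and 1.48.

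**Figure D1:**
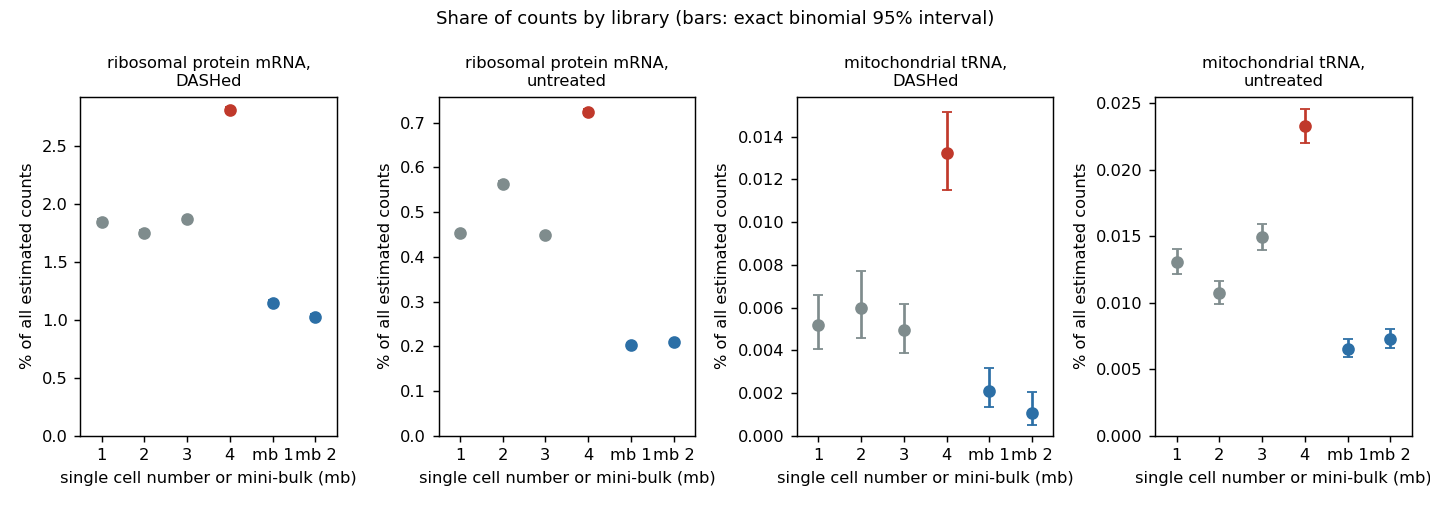
Share of all estimated counts (%, vertical axes from 0) taken by ribosomal protein mRNA (left pair) and mitochondrial tRNA (right pair) in each single cell (1 to 4) and mini-bulk library (mb), with exact binomial 95% intervals that cover counting error only. Cell 4 (red) stands above the other cells (grey) and the mini-bulk libraries (blue) in all 4 panels, at 2.81% and 0.724% for ribosomal protein mRNA.

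Gene by gene, levels are given in CPM, the count of a gene scaled to an equal total in each library, and a difference is log2(CPM + 1) of number 4 minus the mean of cells 1 to 3, averaged over both treatments. Of the 79 ribosomal protein genes, all passed the filter of 20 counts in each treatment, 74 had a difference above 0, and the median was 0.74 (0.83 in DASHed and 0.65 in untreated libraries), beside 0.08 for all 9530 genes compared. Number 4 was the highest of the 4 cells in both treatments for 43 of the 79 and the lowest for 0, where 22.4% and 14.1% of all genes took those places. A gene is called past the 2-fold rule when number 4 lay outside all 3 other cells and at least 2-fold from their mean in both treatments. That rule took 15 ribosomal protein genes as higher and 0 as lower (19.0% and 0%), beside 19.4% and 11.8% of all genes. The share called higher was thus no larger than that of all genes. These counts come from the contrast that chose the cell.

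RPS9, a small-subunit protein near the entry of the mRNA channel, had the largest difference. It was at 139, 10.8, 89.8 and 458 CPM in DASHed cells 1 to 4 and at 20.8, 3.07, 15.9 and 78.9 CPM in untreated cells, a difference of 2.96. The gene lies at chr19:54200742-54249003 (GENCODE v29, GRCh38). RPS29, a small-subunit protein, stood at 28.1, 15.7, 7.83 and 77.1 CPM when DASHed and 7.65, 3.88, 2.20 and 34.6 CPM when untreated, a difference of 2.53. RPS21, also of the small subunit, stood at 103, 98.1, 61.1 and 355 CPM and at 21.2, 25.2, 18.1 and 80.8 CPM, a difference of 1.96. For these 3 genes number 4 lay above every other cell in both sets and cell 2 stood far below cells 1 and 3 for RPS9.

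In the large subunit, RPL29 stood at 99.5, 136, 183 and 457 CPM in DASHed cells and 15.5, 39.3, 34.6 and 95.3 CPM in untreated cells, a difference of 1.75. RPL24, the large-subunit protein that reaches toward the small subunit, stood at 37.3, 11.8, 30.6 and 82.1 CPM and at 8.68, 9.57, 12.7 and 27.5 CPM, a difference of 1.54. RPL38 (1.97) and RPL10 (1.58), the latter a late-joining protein of the large subunit, share over 10% of their exonic bases with other genes, and their values are uncertain. The other genes past the rule were RPL30, RPS27, RPS10, RPL26, RPL23, RPS18, RPS15A and RPL35, with differences from 1.01 to 1.40, of which RPL30, RPS10 and RPL26 are uncertain for the same reason.

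Among the 10 members with the highest CPM the difference ran from 0.11 (RPL18) to 1.0 (RPS3). RPLP0, the stalk's base, stood at 1421, 1216, 2074 and 2240 CPM in DASHed cells 1 to 4 and at 268, 281, 388 and 434 CPM in untreated cells, a difference of 0.52, and RPS2 (uncertain) had a difference of 0.41. Number 4 was highest for both, but only just above cell 3. Without these genes the class stood at 1.60 and 1.52 times the other cells. RPSA, a small-subunit protein that also occurs as a laminin receptor, was at 510, 397, 527 and 935 CPM and at 116, 138, 136 and 234 CPM, a difference of 0.91. The 10 genes with the largest excess in percentage points held 47.5% of the class excess in DASHed and 40.4% in untreated libraries.

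At the other end, 5 genes had a difference below 0, among them RPL12 (−0.47), RPS28 (−0.39, uncertain), RPL21 (−0.24) and RPL14 (−0.10), and in none of these 4 was number 4 the lowest in both sets. RPL12, a large-subunit protein at the stalk base, stood at 46.7, 63.6, 39.7 and 34.3 CPM when DASHed, lowest in number 4, and at 15.5, 31.2, 23.0 and 16.2 CPM when untreated. FAU, which encodes small-subunit protein eS30 fused to a ubiquitin-like protein, had a difference of 1.83 that rests on cell 2. It stood at 218, 1.96, 73.3 and 164 CPM in DASHed cells, so number 4 was below cell 1.

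**Figure D2:**
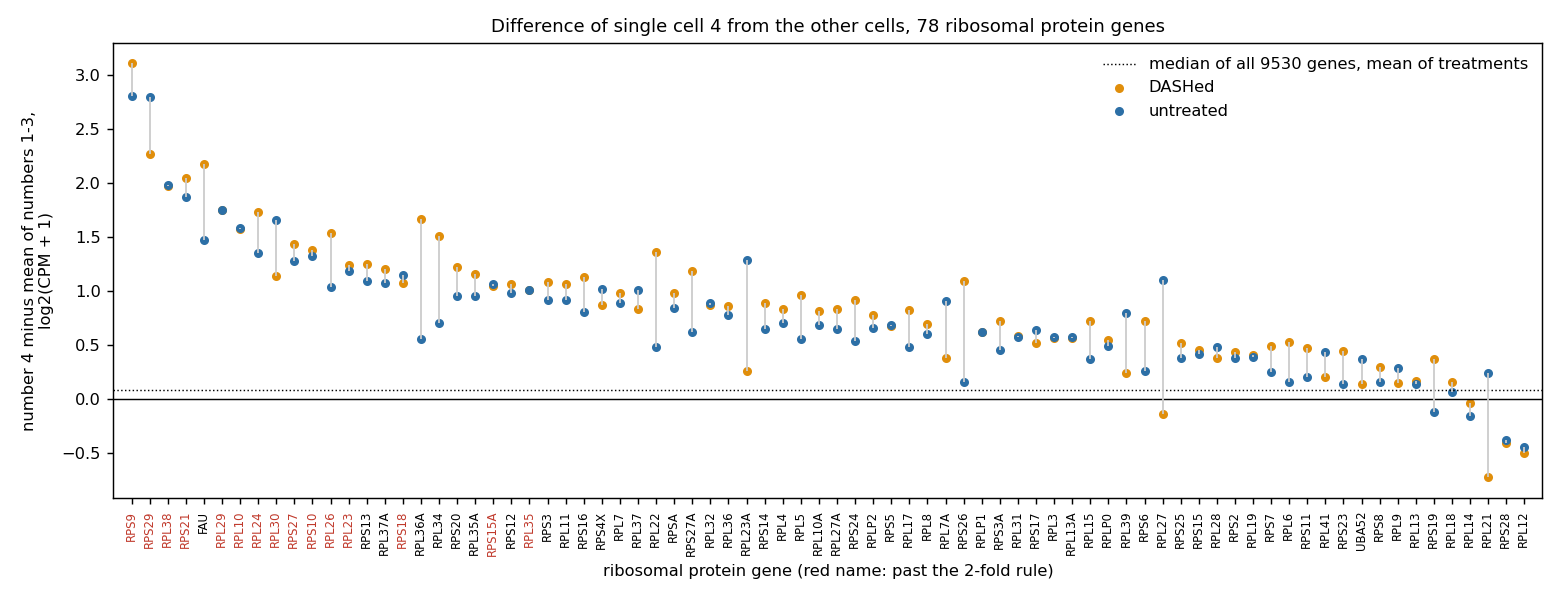
Difference of number 4 from the mean of cells 1 to 3 in log2(CPM + 1) for 78 of the 79 ribosomal protein genes, in DASHed (orange) and untreated (blue) libraries, ordered by the mean of both, with names in red for the 15 genes past the 2-fold rule. The points of 74 genes average above 0, and the dotted line marks the median of all 9530 genes, 0.08.

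Being ranked highest was not shared evenly among the cells. Number 4 was chosen on the summed share of the ribosomal protein genes, so its ranks among them are a description and no test. Cell 1 was the highest in both treatments for 5 of the 79 ribosomal protein genes, cell 2 for 9, cell 3 for 1 and cell 4 for 43, while over all genes the same cells were highest for 17.0%, 22.4%, 19.4% and 22.4%. Cell 3 was the lowest for 36 of the 79 and cell 4 for 0. Among the 56 ribosomal protein genes of at least 50 CPM on average, number 4 was highest for 30, where 18% of all 2042 genes at that level had number 4 highest.

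The TOP motif was searched as a C at the RefSeq start followed by 4 bases that are C or T, on the gene's strand only. It was found at 43 of the 63 ribosomal protein genes with a promoter sequence (68.3%) and at 4.04% of all 27305 promoters. Ribosomal protein genes with the motif had a median difference of 0.82, and the 20 without it 0.60. Outside the ribosomal proteins, 355 tested genes with the motif had a median difference of 0.22 with 20% past the rule as higher, beside 0.08 and 18.9% for 6531 genes without it. RPL12 and RPL21 carry a run of 6 pyrimidines and RPS21 one of 12, in the sequences above. The start windows of RPS29 and RPS28 hold no C at the start, so windows with and without the run occurred at both ends of the differences. In RPS28 a pyrimidine run begins at the next base, which the search did not count.

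The translation factors whose mRNAs also carry TOP motifs did not share the excess as a sum. Their summed share stood at 0.953 and 0.982 times the other cells, between them in both sets. That sum leans on 5 elongation factors, which took 0.613% of DASHed and 0.179% of untreated cell 4, out of 0.957% and 0.352%. Of the 25 genes of the list 1 was higher and 2 were lower past the rule (4% and 8%, beside 19.4% and 11.8% of all genes). Gene by gene, 16 of the 25 had a difference above 0 and 9 below. The median difference was 0.31, beside 0.08 for all genes and 0.74 for the ribosomal proteins. EIF3K, a subunit of initiation factor 3, was at 27.2, 12.8, 13.0 and 64.9 CPM in DASHed cells and 6.6, 7.40, 3.16 and 18.7 CPM in untreated cells. PABPC4, a cytosolic poly(A) binding protein, was at 140, 292, 237 and 50.8 CPM and at 28.5, 132, 76.4 and 20.3 CPM, a difference of −1.85, and the elongation factor subunit EEF1D (−1.83, uncertain) was the other lower gene. Regulators of TOP mRNAs were lowest in number 4 in both sets by summed share, at 0.574 and 0.653 times the other cells, and 8 of 11 tested had a difference below 0. RPS6KB1, the S6 kinase downstream of mTORC1, was higher (2.37), and the mTORC1 inhibitor TSC2 was lower, at 199, 546, 245 and 60.6 CPM in DASHed cells and 34.4, 143, 58.9 and 12.5 CPM in untreated cells.

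Apart from host genes of small nucleolar RNAs, other parts of ribosome production did not follow the ribosomal proteins. Nucleolar and assembly factors stood at 0.897 and 0.982 times the other cells. Of 30 tested, 3 were higher (RRS1, UTP3 and GNL3) and 3 lower (RRP9, MRTO4 and BYSL), 10% each way beside 19.4% and 11.8% of all genes. Subunits and factors of RNA polymerases I and III, which make rRNA and tRNA, were lowest in number 4 in both sets by summed share, at 0.557 and 0.610. Gene by gene the shift was small, with a median difference of −0.13 and 1 higher and 3 lower of 24 (4.17% and 12.5%). POLR3E, a polymerase III subunit, stood at 80.7, 426, 141 and 0 CPM in DASHed cells and 19.3, 93.8, 21.8 and 0.177 CPM in untreated cells. MYC, the transcription factor that drives ribosome production, stood at 1081, 673, 1954 and 804 CPM and at 183, 148, 396 and 171 CPM, with number 4 between the others. The 18S and 28S rRNA entries differed by 0.07 and 0.03. Host genes of small nucleolar RNAs (snoRNAs), several of which begin with TOP motifs, stood at 1.90 and 1.82 times the other cells, highest in both sets, and 5 of 13 were higher and 1 lower (38.5% and 7.69%, beside 19.4% and 11.8% of all genes). SNHG5 was at 0.756, 1.96, 7.80 and 38.8 CPM in DASHed cells and 0, 2.89, 5.65 and 14.7 CPM in untreated cells, and SNHG19 was the lower one (−1.80). SNHG8 (3.22), SNHG7 (2.39), ZFAS1 (1.89) and SNHG1 (1.73) are uncertain because they overlap other genes.

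Mitochondrial tRNA took 0.0132% of the counts of DASHed cell 4, against 0.00520%, 0.00599% and 0.00494% in cells 1 to 3, and 0.0233% of untreated cell 4, against 0.0130%, 0.0107% and 0.0149%. These are 2.46 and 1.80 times the mean of the other cells, and mini-bulk libraries held 0.00107 to 0.00211% when DASHed and 0.00655 to 0.00729% when untreated. The level in DASHed libraries rests on few counts. MT-TA had 4, 8, 8 and 34 counts in DASHed cells 1 to 4 and 92, 98, 74 and 179 in untreated cells. MT-TN had 12, 6, 5 and 25 counts and 99, 69, 85 and 191. The ratio of number 4 to the other cells was 4.19 (exact 95% interval 2.35 to 7.69, counting error only) for DASHed and 2.07 (1.70 to 2.51) for untreated MT-TA, and 2.68 (1.46 to 4.94) and 2.31 (1.90 to 2.79) for MT-TN.

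MT-TC had 23, 17, 22 and 55 counts in DASHed cells and 105, 105, 106 and 173 in untreated cells, and MT-TY had 21, 28, 29 and 70 and 102, 110, 124 and 182. Number 4 was the highest for all 4 in both sets, and MT-TA and MT-TN were past the 2-fold rule. The cluster held 87.6% of the mitochondrial tRNA excess of number 4 in DASHed and 58.2% in untreated libraries. In cells 1 to 3 it held 84.2 to 96.7% of all mitochondrial tRNA counts when DASHed and 43.4 to 64.2% when untreated. Its part of the excess thus lay within its usual part of the class. The sum of the cluster stood at 2.42 and 1.89 times the other cells. The other 18 mitochondrial tRNAs did not pass the filter of 20 counts in each treatment. Their summed share was also highest in number 4, at 2.76 and 1.71 times the other cells, on few counts when DASHed. Counting all 22, number 4 was highest for 16 in the untreated set, for 10 in the DASHed set and for 9 in both. It was highest in both for 22.4% of the 9530 genes compared. Some of these ranks rest on 1 count or on a near tie. MT-TQ had 0, 0, 0 and 1 DASHed counts, and MT-TV had 181, 94, 273 and 272 untreated counts. MT-TF, the phenylalanine tRNA at the head of the rRNA genes, had 1, 1, 0 and 8 DASHed counts.

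Other mitochondrial RNA classes did not share the excess as sums. Mitochondrial rRNA stood at 0.753 and 0.642 times the other cells, between them when DASHed and lowest when untreated. The 13 mRNAs encoded in mitochondrial DNA together stood at 1.15 and 0.912, between the others in both sets, and 0 of them passed the rule in either direction. MT-CO1, the catalytic subunit of cytochrome oxidase, was at 2947, 3920, 2809 and 4120 CPM when DASHed and 3440, 5640, 3572 and 4257 CPM when untreated. Of the 7 complex I mRNAs, 6 had a difference above 0 and 4 were highest in number 4 in both sets, namely MT-ND1 (0.43), MT-ND2 (0.63), MT-ND3 (0.66) and MT-ND6 (0.34), named after their values were seen. Over all genes, 4935 of 9530 had a difference above 0, and number 4 was highest in both sets for 22.4%. MT-ND4 was the 1 that was lowest in number 4, at 1636, 2807, 1487 and 1483 CPM and at 3096, 5970, 2865 and 2545 CPM.

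Nuclear genes that finish mitochondrial tRNAs stood at 2.69 and 2.56 times the other cells, the largest ratio of the lists plotted in the chart of gene classes, and 6 of 9 tested were higher and 2 lower past the rule (66.7% and 22.2%, beside 19.4% and 11.8% of all genes). TRIT1, which adds an isopentenyl group beside the anticodon, was at 0.754, 0, 11.1 and 132 CPM in DASHed cells and 0, 0.371, 2.83 and 49.2 CPM in untreated cells. ELAC2, the nuclease that cuts the 3′ end, was at 34.7, 83.6, 166 and 442 CPM and at 8.89, 28.1, 47.3 and 99.2 CPM, a difference of 2.27. The summed ratio of the list leans on ELAC2 and, less so, on TRIT1. TRNT1 (uncertain), which adds the CCA end, had 24 counts in DASHed cell 4 and 0 in the other 3. TRMU, CDK5RAP1 and MTO1, which modify tRNA bases, were also higher, with 1.25 for MTO1. PUS1, a pseudouridine synthase, was lower, at 85.2, 96.2, 74.8 and 19.7 CPM and 15.3, 17.3, 12.6 and 6.38 CPM, as was KIAA0391, the protein-only RNase P subunit that cuts the 5′ end (−2.90, uncertain).

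The mitochondrial ribosome split by subunit. Small-subunit genes stood at 1.72 and 1.89 times the other cells, highest in both sets, with 11 higher and 2 lower of 22 tested (50% and 9.09%, beside 19.4% and 11.8% of all genes) and a median difference of 1.49. Large-subunit genes stood at 0.574 and 0.695, lowest in both sets, with 4 higher and 7 lower of 41 (9.76% and 17.1%) and a median of −0.57. MRPS6 was at 0, 0, 2.60 and 49.6 CPM in DASHed cells and 0, 0.180, 1.5 and 24.3 CPM in untreated cells, and MRPS9 at 1.51, 5.89, 0 and 37.5 CPM and 2.26, 1.26, 0 and 13.4 CPM. MRPL11 was at 32.4, 55.9, 3.25 and 0 CPM and 3.47, 11, 0.499 and 0 CPM, while MRPL43 (−3.62) and MRPL38 (−3.37) are uncertain, as are the higher genes MRPS18C, MRPS24 and MRPS25. In MRPS6 and MRPS9 number 4 lay far above 3 cells near 0, whereas in MRPL11 it lay at 0 not far from cell 3.

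Nuclear-encoded subunits of the respiratory chain stood at 1.37 and 1.36 times the other cells, highest in both sets, with a median difference of 0.86. The 17 higher and 9 lower of 69 (24.6% and 13.0%) lay near the 19.4% and 11.8% of all genes. Complexes II and III together had 4 higher and 0 lower of 13 and stood at 1.75 in both sets. UQCRC2, a core subunit of complex III, was at 69.4, 3.93, 5.85 and 141 CPM when DASHed and 26.6, 11.4, 1.67 and 50.8 CPM when untreated. Complex IV stood at 1.53 in both sets with 3 higher (COX7A2, COX7B and COX8A, the last uncertain) and 1 lower (COX5A) of 9. Complex I was mixed, with 9 higher and 7 lower of 32, and its share lay between those of the other cells. NDUFB6 was higher, at 12.1, 6.87, 9.11 and 47.1 CPM and 2.65, 3.43, 1.62 and 12.3 CPM, and NDUFA12 was lower, at 30.2, 36.3, 2.60 and 1.27 CPM and 18.4, 37.0, 0.333 and 0.176 CPM.

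**Figure D3:**
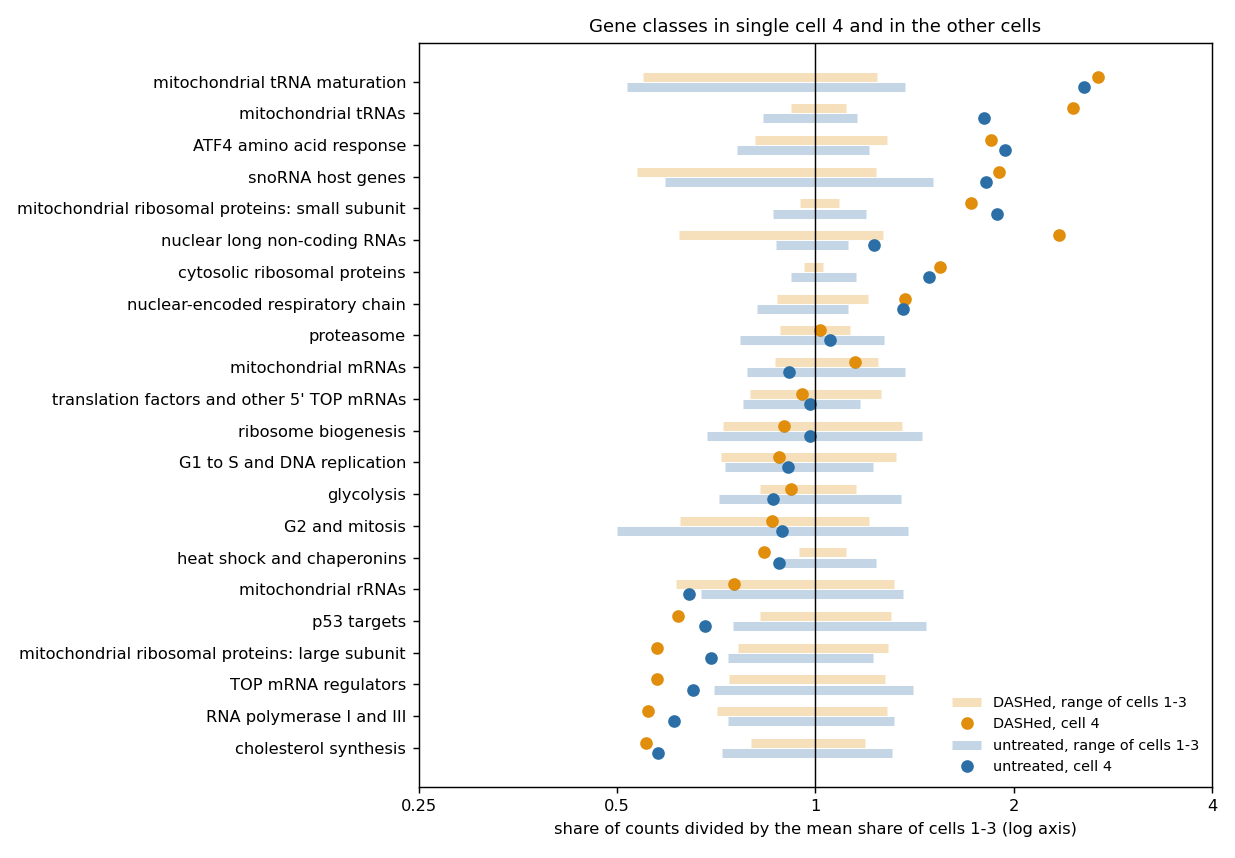
Share of counts of 22 gene classes divided by the mean share of cells 1 to 3 of the same treatment (log axis), for cell 4 (points) and for the range of cells 1 to 3 (bars), DASHed in orange and untreated in blue. Mitochondrial tRNA maturation (2.69 and 2.56) stands at the top and cholesterol synthesis (0.553 and 0.576) at the bottom, and the cytosolic ribosomal proteins (1.54 and 1.49) lie outside a narrow bar of the other cells.

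Genes of the amino acid response were among those highest in number 4. ATF4 is the transcription factor that is translated when amino acids are short or translation initiation is impaired, and it switches on amino acid synthesis, uptake and tRNA charging. A list of its known targets was written after CHAC1 and PSAT1 had been seen among the largest differences, so its counts describe these libraries and are not independent of them. Of 44 genes 36 were tested, 17 were higher and 0 lower past the rule (47.2% and 0%, beside 19.4% and 11.8% of all genes), and the median difference was 1.31. The list leaves out PPP1R15A, another ATF4 target, which stands in the broader stress list and was lower. With it, 17 were higher and 1 lower of 37 and the median was 1.26. The summed share of the 44 genes stood at 1.84 and 1.94 times the other cells, highest in both sets. The list took 1.10% of DASHed and 0.305% of untreated cell 4. Amino acid carriers held 0.756% and 0.180%, mostly as SLC7A5, so the sum leans on that gene. The 6 carriers tested had a median difference of 0.09. Regulators stood at 2.41 and 2.60 times the other cells, amino acid synthesis at 1.43 and 1.58, and tRNA charging and export at 1.31 and 1.81.

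ATF4 itself was at 228, 214, 46.8 and 277 CPM in DASHed cells and 38.4, 59.1, 20.3 and 84.0 CPM in untreated cells, a difference of 1.13. CHAC1 (chr15:40952962-40956519), an enzyme that degrades glutathione, had 0 counts in all 3 other cells of each set and stood at 122 and 27.9 CPM in number 4. It was at least 158-fold higher in DASHed and at least 161-fold higher in untreated libraries, against a floor of 3 counts summed over the other cells. ADM2, a secreted peptide, stood at 0, 0, 0 and 126 CPM when DASHed and 1.53, 0.180, 0 and 27.5 CPM when untreated. In CHAC1 and ADM2 cell 4 alone carried nearly all counts of the single cells, while mini-bulk libraries held 10.1 and 13.1 CPM of CHAC1 when DASHed.

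Enzymes of serine synthesis were higher together. PSAT1 was at 0, 0, 0.650 and 80.1 CPM in DASHed cells and 0.174, 0.361, 1.17 and 30.9 CPM in untreated cells. PHGDH, the first enzyme of the pathway, was at 0, 5.89, 63.1 and 144 CPM and at 0, 6.06, 13.5 and 28.9 CPM, and PSPH, the last one, at 7.63, 2.06, 7.35 and 50.5 CPM and 4.29, 0, 2.38 and 9.10 CPM. ASNS (uncertain), the asparagine synthetase, had a difference of 3.91 and GPT2, an alanine aminotransferase, one of 3.10. Cell 3 came next after number 4 in PHGDH, ASNS and GPT2, while cells 1 and 2 were low or at 0 in them.

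Among amino acid carriers, SLC7A5, the light chain of a leucine transporter, was at 2428, 1518, 3557 and 6053 CPM in DASHed cells and 489, 372, 777 and 1321 CPM in untreated cells, a difference of 1.35, and it was the member with the most counts. SLC7A1, a carrier of basic amino acids, was at 359, 207, 235 and 808 CPM and 92.2, 73.8, 58.6 and 257 CPM. The other 4 carriers tested were not past the rule. SLC3A2, the heavy chain that pairs with SLC7A5, had a difference of −0.75 with number 4 between the other cells, and SLC1A5 one of −0.38 (uncertain). Of the 20 cytosolic aminoacyl-tRNA synthetases, which load tRNAs, 5 were higher (GARS, CARS, IARS, NARS and EPRS) and KARS was lower (25% and 5%, the first near the 19.4% of all genes), and their summed share stood at 0.990 times the other cells when DASHed, between them, and 1.32 when untreated, the highest. GARS was at 34.7, 3.93, 15.6 and 140 CPM and 30.9, 11, 7.82 and 130 CPM.

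Not all ATF4 targets and stress genes were higher. PPP1R15A, the phosphatase subunit that reverses the block on initiation, was lower, at 76.9, 144, 74.1 and 0 CPM in DASHed cells and 12.2, 43.8, 25.3 and 0.529 CPM in untreated cells. MANF (−2.98) and HSP90B1 (−1.25), proteins of the endoplasmic reticulum, were lower, and HSPA5, its main chaperone, had a difference of 0.10 with number 4 between the others. DDIT3 (uncertain), a factor of the later response, had at most 0.981 CPM in any single cell, and SESN2, an inhibitor of mTORC1, had 0 counts in all 8, although mini-bulk libraries had counts of both. Of the 20 tested genes of the broader stress list, 6 were higher and 3 lower (30% and 15%, beside 19.4% and 11.8% of all genes), with a median of 0.06.

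**Figure D4:**
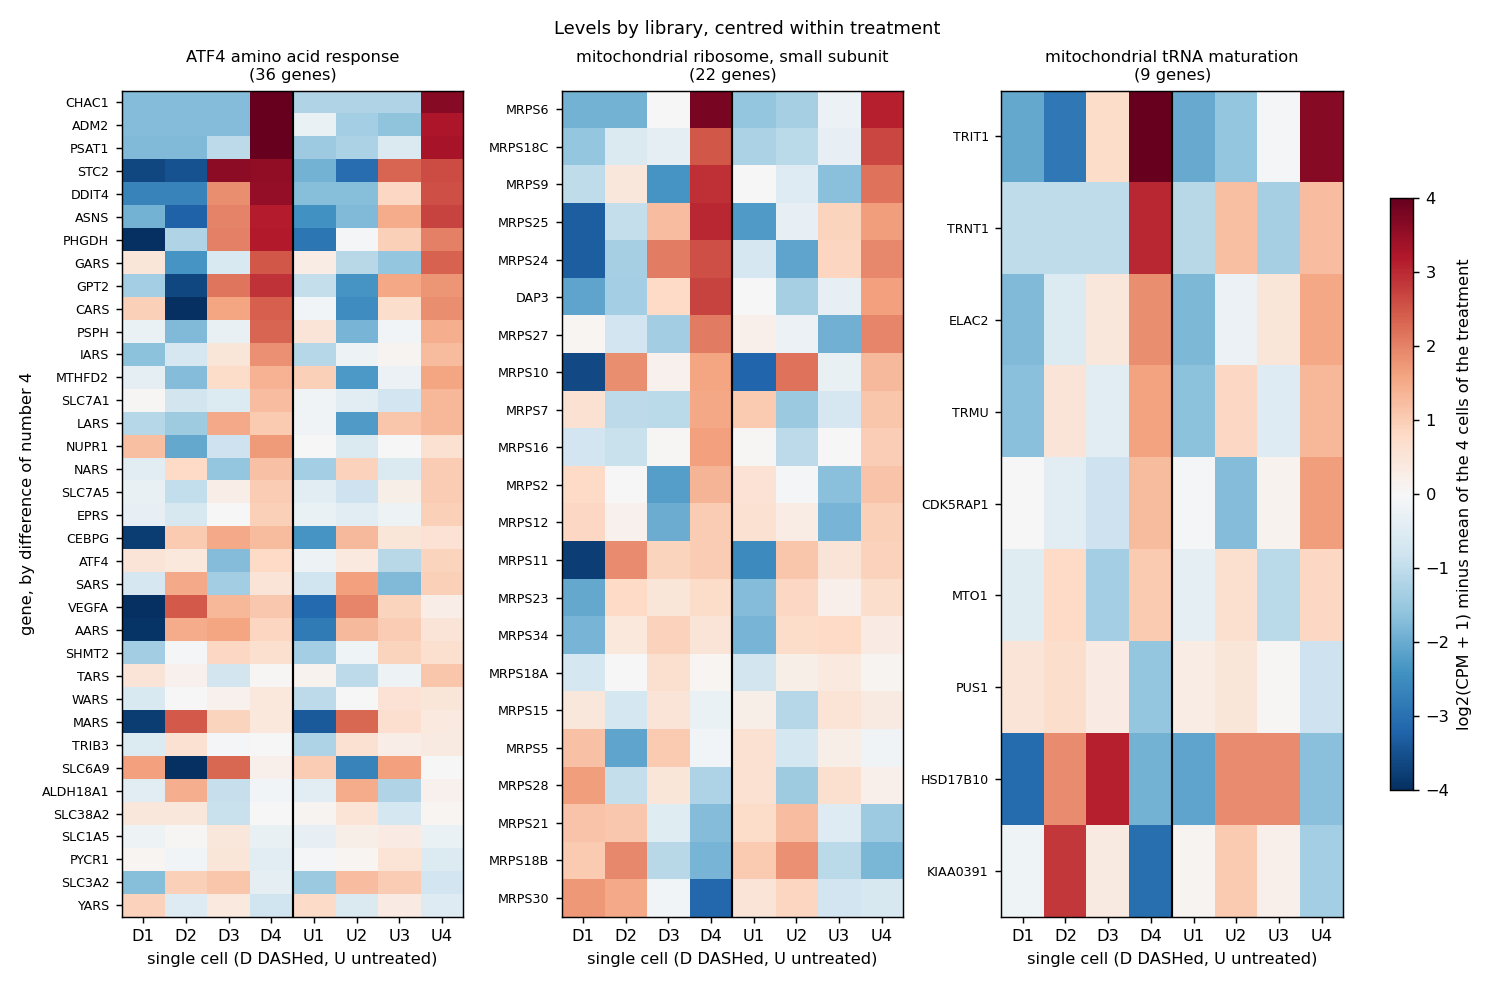
Level of each tested gene in log2(CPM + 1) minus the mean of the 4 single cells of its treatment (red above, blue below, colour scale cut at −4 and 4), for the ATF4 amino acid response (36 genes), the small subunit of the mitochondrial ribosome (22) and mitochondrial tRNA maturation (9), in DASHed (D1 to D4) and untreated (U1 to U4) cells. Columns D4 and U4 are red down most of each panel, and cell 3 is also red for several of the upper genes of the left panel.

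Cholesterol synthesis was lowest in number 4 in both sets, at 0.553 and 0.576 times the other cells, with 4 lower and 2 higher of 19 (21.1% and 10.5%, beside 11.8% and 19.4% of all genes). MVD, which makes isopentenyl pyrophosphate, was at 107, 102, 67.6 and 3.86 CPM in DASHed cells and 28.3, 33.4, 22.1 and 1.06 CPM in untreated cells, and FDFT1 (−2.95) and DHCR7 were lower too. INSIG1, which restrains the pathway's transcription factor SREBP, and HMGCS1 (uncertain), an early enzyme, were higher, with differences of 3.5 and 2.40. Genes induced by p53 stood at 0.618 and 0.680, lowest in both sets, with PHLDA3 (−3.79, uncertain) the 1 gene past the rule of 12.

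Summed shares of cell cycle genes lay between those of the other cells in both sets. Genes of G1, S phase and replication stood at 0.880 and 0.908, with 7 higher and 9 lower of 47 (14.9% and 19.1%). Genes of G2 and mitosis stood at 0.859 and 0.890, with 6 higher and 2 lower of 46 (13.0% and 4.35%). Of all genes, 19.4% were higher and 11.8% lower. The median difference was −0.02 in the first list and 0.45 in the second, where 29 of 46 genes lay above 0. E2F1 was at 2.26, 39.3, 0 and 76.9 CPM when DASHed and 0.695, 6.67, 0.166 and 17.5 CPM when untreated, and CDT1, which licenses replication origins, had a difference of 2.95. RFC5 (−4.67, uncertain) and CCND3 (−2.85) were lower. Replication-dependent histones, which peak in S phase, took 0.147% of DASHed cell 4 and 0.123% and 0.0868% of cells 2 and 3, but 1.41% of cell 1, so their ratio of 0.273 rests on cell 1.

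The largest single differences were of genes near 0 on one side. MIF4GD (chr17:75266228-75271227), which takes part in histone mRNA translation, had 0 counts in cells 1 to 3 of both sets and stood at 232 and 59.6 CPM in number 4, at least 300.4-fold and 344-fold higher against the floor of 3 counts. ERAP1, the peptidase that trims antigens, was likewise at 0 in the other cells and at 76.9 and 36.0 CPM in number 4. APAF1, the scaffold of the apoptosome, was at 0.754, 0, 0 and 138 CPM and at 0.176, 2.15, 0.333 and 43.6 CPM. On the lower side, BMP4, a secreted growth factor, stood at 172, 698, 319 and 0 CPM when DASHed and 33.0, 138, 54.3 and 0 CPM when untreated, at least 193-fold and 140.1-fold lower. HAS3, a hyaluronan synthase, was at 723, 389, 304 and 0 CPM and 150, 104, 78.6 and 0.176 CPM. SETD1A, a histone methyltransferase, LRP5, a Wnt coreceptor, and TET3, a dioxygenase of methylcytosine, also had 0 counts in number 4 in both sets.

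Such gaps are common among these single cells. Of the 9530 genes, 1072 (11.2%) had no count in number 4 in either set, and 102 (1.07%) had counts in number 4 and in no other single cell, of which 89 had counts in mini-bulk libraries. Fewer molecules of an RNA in the cell and loss of its molecules before or during amplification cannot be told apart in these libraries. The differences of the DASHed and the untreated set correlated at 0.926 across the 9530 genes.

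The profile over the 8 single-cell libraries most like that of the summed ribosomal protein mRNA, among 5277 genes with at least 100 counts in each treatment, belonged to AGPAT1 (Pearson r 0.991, centred within treatment, uncertain), an acyltransferase of phospholipid synthesis, followed by the ubiquitin ligase TRIP12 (0.982) and the mitochondrial inner membrane protein PHB2 (0.977, uncertain). TRIP12 was at 41.5, 46.1, 44.2 and 248 CPM in DASHed cells and 32.3, 62.9, 35.3 and 143 CPM in untreated cells. NDUFB6, NUP188, APAF1, MBNL1, SLC38A10, ELAVL1 and CNIH4 completed the first 10, at 0.957 to 0.968. The 8 libraries are 4 numbers, and the ribosomal protein sum is high in only 1 of them, so any gene high in number 4 alone scores well.

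Markers of the line and of other cell types were read in the same way. Of 20 epithelial markers 11 were tested, ELF3 and EPCAM were higher and CDX2 and KRT8 lower. That is 18.2% each way, beside 19.4% and 11.8% of all genes. EPCAM was at 21.1, 0, 27.3 and 54.0 CPM when DASHed and 10.1, 4.09, 9.32 and 19.7 CPM when untreated, and KRT8 at 707, 617, 2444 and 480 CPM and 150, 164, 472 and 96.7 CPM. Summed epithelial markers took 0.148% of DASHed cell 4 (0.140 to 0.443% in the others) and 0.0434% of untreated cell 4 (0.0340 to 0.095%). None of the 14 leukocyte, 8 endothelial or 7 erythroid markers passed the filter, and their summed shares in number 4 were at most 0.000191% for any of these lists. PTPRC was at 0 in DASHed cell 4 and 0.582 CPM in untreated cell 4, and the smooth muscle gene TAGLN (uncertain) was at 0 in both. Of 12 fibroblast and muscle markers 2 passed the filter. The 12 together took 0.000288% of DASHed cell 4 (0.000466 to 0.00638% in the others). In untreated cell 4 they took 0.000351% (0.000241 to 0.00168%).

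Base composition moved with the difference. The eighth of genes with the lowest GC content had a median difference of 0.39 and the eighth with the highest −0.36, while ribosomal protein transcripts had a median GC content of 50.3% and all compared genes 52.0%. Set against the 300 genes nearest in GC content, the median of the ribosomal proteins was 0.65, and set against the 300 nearest in transcript length it was 0.52. The part of base composition and length in the differences of single genes was not tested.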

How the data were processed

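Gene-level estimated counts, unscaled, were deposited by the authors, who used kallisto (version 0.46.2, from the submitters' processing notes). The sources used here name neither the annotation nor the use of strand. kallisto divides reads among similar sequences, so near-identical genes depend on each other, and genes sharing at least 10% of their exonic bases with another gene are called uncertain. Of 57134 names 57079 matched GENCODE v29 (GRCh38), which gave coordinates, GC content and length.

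Counts were scaled to CPM on the library total, and 9530 genes with at least 20 counts summed over the 4 single cells of each treatment were compared on log2(CPM + 1). Number 4 was set against cells 1 to 3 within each treatment and the 2 differences were averaged. Intervals are exact (binomial for shares, conditional binomial for ratios) at 95% and cover counting error only, since reads of amplified cDNA are not independent molecules. With 1 cell on a side, chosen on its values, no p-value is given, and a floor of 3 counts stands for genes at 0. Alternatives used other pseudocounts, filters, scalings (edgeR 4.0.16 TMM factors in R 4.3.3, median-ratio factors), folds and left-out cells, with Python 3.11.15. The script was tested on simulated data.

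The members, the 38 gene lists and the rule for named genes were chosen with earlier results of these data known, and 2 more lists were written after values were seen. The rule took the 15 largest differences each way past the 2-fold rule, up to 3 members of a list each way or else the 2 highest in CPM, the 10 highest and the lowest ribosomal proteins, the mitochondrial tRNAs, rRNA, and the 10 profiles most like the ribosomal proteins. Further list members were named after their values were seen. Some listed genes are not reported here. Promoter windows are from RefSeq.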

Additional observations from a re-analysis of the deposited data

Results flagged for a closer look

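Summed shares of 34 gene lists were examined in the 4 DASHed and the 4 untreated single cells for 1 cell set far from the rest, measured as its gap to the nearest cell over the range of the group and set against Dixon's 95% critical value for 4 values. Chance flags about 1 in 20 independent groups. Of 68 groups 9 were past that value, but both treatments of a list hold same-numbered cells that go together, so the groups are not independent and the count is not set against chance. Number 4 was the distant cell for ribosomal protein mRNA in the DASHed set (ratio 0.889) and for mitochondrial tRNA in the DASHed set (0.874). These shares are the ones that chose it, so both values are a description and no test. Cell 1 was the distant one for replication-dependent histones, at 0.954 in DASHed and 0.95 in untreated libraries. Cell 2 was it for immediate-early genes (0.941 and 0.940), and in untreated libraries for p53 targets (0.874) and for heat shock genes and chaperonins (0.978). Cell 3 was it for epithelial markers in the DASHed set (0.961). Each of the 4 cells thus stood apart in at least 1 class. The flags were taken on shares of all counts, and the rRNA share differed between cells. Outside rRNA, heat shock genes and chaperonins took 1.19%, 1.16%, 1.07% and 1.03% of the counts of untreated cells 1 to 4. Cell 2 lay between the others there. On that scale p53 targets took 0.0632%, 0.0856%, 0.0583% and 0.0494%, with cell 2 still the highest. Dixon's ratio was not taken on that scale.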

How the results depend on the processing

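No paired analysis was possible because number 4 is itself a replicate number, so a block for the number would take up the whole comparison, and because the comparison came from no test. Treatment was the block, and number 4 cannot be left out. The number of genes past the rule was 1848 higher and 1126 lower. A filter of 100 counts left 915 higher among 5355 genes compared, and untreated libraries alone gave 2816 higher and 1753 lower of 12260, since fewer or more genes were compared and only 1 set had to pass. Leaving out 1 of cells 1 to 3 gave 1496 to 1744 lower, the most without cell 2, because fewer cells had to be passed. The mitochondrial tRNA log2 share ratio was 1.07 over both sets, 1.30 in DASHed and 0.85 in untreated libraries. The median difference of the tested mitochondrial tRNAs, 1.08, became 0.88 with a pseudocount of 5 CPM, 0.89 with a filter of 1 count, 0.90 with a filter of 100 counts, 1.22 in DASHed and 0.76 in untreated libraries. Set against the 300 nearest genes it was 0.88 for expression, 0.73 for transcript length and 0.79 for GC content. Ribosomal proteins kept a median from 0.52 to 0.83 over the settings, with 68 to 74 members above 0, and number 4 was highest for 34 of them with TMM factors. Of 286 named genes, 0 past the rule changed sign under any setting run. The rule largely fixed that outcome, since number 4 lay outside all 3 other cells in both treatments for such genes, so it lends no support. Depth limits the 4 tested DASHed mitochondrial tRNAs, which rest on 4 to 70 counts a cell.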

Other observations

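The 9 listed long non-coding RNAs were together highest in number 4 in both sets, at 2.34 and 1.23 times the other cells. Of 8 tested, 4 were higher and 0 lower (50% and 0%, beside 19.4% and 11.8% of all genes). Their summed share stayed below that of the mini-bulk libraries. As a share of the counts outside rRNA, they took 0.214% of untreated cell 1 and 0.201% of untreated cell 4. Number 4 was thus not the highest of the untreated cells on that scale. NORAD, which binds PUMILIO proteins, stood at 55.1, 4.11, 36.5 and 221 CPM in DASHed cells 1 to 4 and 24.1, 24.4, 20.5 and 60.6 CPM in untreated cells. KCNQ1OT1, the imprinted antisense transcript, stood at 29.3, 124, 45.3 and 323 CPM and at 38.7, 80.8, 37.5 and 132 CPM. LINC-PINT and TUG1 were higher but are uncertain.

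Proteasome and glycolysis genes showed single members far apart within classes whose sums lay between the other cells. PSMD4, a ubiquitin receptor of the proteasome, stood at 18.1, 32.4, 18.9 and 168 CPM in DASHed cells and 7.81, 10.8, 6.65 and 50.4 CPM in untreated cells, while PSMD2 stood at 194, 439, 356 and 30.5 CPM and at 44.8, 149, 85.9 and 8.12 CPM. SLC2A1, the glucose carrier, stood at 0, 24.5, 204 and 409 CPM and at 0, 9.74, 51.6 and 76.9 CPM, and PGAM1, a late glycolytic enzyme, had a difference of −1.84.

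Near-identical copies moved in opposite directions. HSPA1A had counts in number 4 alone (81.2 and 15.1 CPM), while HSPA1B (uncertain) was lower in number 4 in both sets. The summed pair took 0.0188%, 0.00579%, 0.0828% and 0.0100% of DASHed cells 1 to 4, with number 4 between the others, and 0.00478%, 0.00198%, 0.0205% and 0.00174% of untreated cells. Its ratio to the other cells, 0.281 and 0.191, rests on cell 3 and was 0.817 and 0.514 without it, a setting chosen after the data were seen.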
